A study of Mus musculus with 16 samples.

Results

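Nucleosides such as adenosine cross membranes through 2 families of transporters, and the set described here holds members of both, together with enzymes that make and remove adenosine. It was defined by name as 9 genes of the 39179 in the count tables: the concentrative transporters Slc28a2 and Slc28a3, the equilibrative transporters Slc29a1, Slc29a2 and Slc29a3, the ectoenzymes Entpd1 and Nt5e, and the intracellular enzymes Ada and Adk. Slc28a2 was picked for its large rise with dexamethasone (DEX), so its values with and without DEX are a description and carry no test. The other 8 genes are its relatives and the adenosine enzymes, and all 9 had a row in every table.

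The cells were bone marrow-derived mast cells (BMMCs), grown for 4 weeks from the marrow of male C57BL/6 mice aged 8 to 10 weeks. PEP+/+ cells carried the phosphatase PEP, the product of Ptpn22, and PEP-/- cells came from mice null for Ptpn22. Every sample was sensitized with IgE for 3 h, the controls included. The 4 treatments were IgE alone, IgE followed by the antigen DNP (200 ng/ml for 1 h), IgE with the synthetic glucocorticoid DEX (100 nM for 8 h), and IgE with DNP and DEX. Each of the 8 combinations had 2 samples, one from a set with numbered titles and another from a set with lettered titles, so 16 poly(A) RNA libraries were compared. The labels do not say how many mice or cultures stood behind them, so p-values measure only the spread between these samples, which may be technical.

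Concentrative transporters use the sodium gradient to pull nucleosides into the cell against their own gradient, whereas equilibrative transporters let them move down the gradient in either direction. Outside the cell, CD39, encoded by Entpd1, trims ATP and ADP to AMP, and CD73, encoded by Nt5e, turns AMP into adenosine. Inside, adenosine deaminase (Ada) converts adenosine to inosine and adenosine kinase (Adk) returns it to AMP. Mast cells sense extracellular adenosine through surface receptors, and adenosine is known to modulate their degranulation.

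Reads assigned to genes ranged from 8612531 to 22143526 per sample, with a median of 12814043.5. Ptpn22 had 130 to 2799 reads in PEP+/+ samples and 0 to 55 in PEP-/- samples, so every library matched its label. The 9 mast cell markers, among them Kit, Fcer1a and Cpa3, summed to 63200 to 104000 CPM (counts-per-million, scaled by TMM). The basophil markers Mcpt8 and Prss34 summed to 19.8 to 122 CPM and the macrophage markers to 1.56 to 6.52 CPM, with C1qa at 0. These and the neutrophil markers were higher in the numbered set, at 48.5 to 122 against 19.8 to 45.4 CPM for basophil markers, 3.97 to 6.52 against 1.56 to 2.38 CPM for macrophage markers and 1.23 to 2.28 against 0 to 0.309 CPM for neutrophil markers, of which Camp was at 0. Many genes differed between the 2 sets in all conditions. For this reason a fit with the set as a block is given for the 9 genes where it changed a call in the comparisons below. For other genes of the pathway it is given mainly as counts. Erythroid markers summed to 0.11 to 0.72 CPM without DEX and 0.407 to 6.38 CPM with it, and their part in the DEX differences was not tested. Dendritic cell markers reached at most 1.56 CPM, and those of T cells, B cells, eosinophils and stroma at most 0.605 CPM. In bulk RNA, fewer cells expressing a gene and less RNA per cell cannot be told apart.

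Levels were compared between genes as RPKM, the CPM value divided by the exon length of the gene in kilobases. That length joins all annotated exons, so the order of genes depends on the annotation. Ada had the highest median over the 16 samples, at 16.5 RPKM, followed by Adk at 11.1, Entpd1 at 8.59 and Slc29a1 at 6.2 RPKM. In CPM, without the length, the medians were 94.3 for Adk, 47.9 for Entpd1, 33 for Ada and 24.9 for Slc29a1. The ranges of these 4 genes overlapped, from 9.64 to 29 RPKM for Ada, 5.17 to 20.3 for Adk, 4.38 to 13.7 for Entpd1 and 4.02 to 10 for Slc29a1. Slc29a3, the equilibrative transporter of lysosomal and other intracellular membranes, had a median of 1.75 RPKM (0.625 to 2.29) and did not reach the range of Slc29a1. Slc28a2 spanned 0 to 11.9 RPKM, so its place in the order depended on the treatment. Slc29a2, at a median of 0.0919 RPKM, Nt5e, at 0.0223, and Slc28a3, at 0.0148, had 0 to 22 reads per sample at most. Among the 9 genes, Ada, Adk, Entpd1 and Slc29a1 were therefore the ones abundant in these cells whatever the treatment.

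Of the 9 genes, 8 passed the filter on low counts, and Slc28a3 did not. Slc28a2 passed through DEX-treated samples alone, with 8 samples above the cutoff of 0.78 CPM, all of them with DEX. Nt5e passed with 3 samples above it, 2 of them with DEX, and Slc29a2 with 4 samples, 3 of them without DEX. The remaining 5 genes were above the cutoff in all 16 samples.

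Slc28a2 encodes the concentrative transporter CNT2, which prefers purine nucleosides, and lies on the plus strand at chr2:122426477-122461137 (GRCm38). It had no reads in any of the 4 PEP+/+ samples without DEX and at most 1 read in the 4 PEP-/- samples without DEX, 2 reads in all. With DEX, every sample held at least 103 reads. In PEP+/+ cells the numbered and lettered samples reached 8.4 and 8.5 CPM after IgE DEX, and 13.4 and 12.4 after IgE DNP DEX (all in CPM). In PEP-/- cells they reached 42.1 and 26.7 CPM after IgE DEX, and 50.1 and 36.6 CPM once DNP was added. Samples with and without DEX thus did not overlap, and neither did the 2 genotypes among the samples with DEX.

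The size of the difference with DEX can only be bounded where the other group had no reads. Against a floor of 3 reads per library, Slc28a2 was at least 35.1-fold higher after IgE DEX than after IgE in PEP+/+ cells, and at least 41.6-fold higher after IgE DNP DEX than after IgE DNP. In PEP-/- cells, where a single read was found in each of the groups without DEX, 1075 reads against 1 gave a ratio of 1120 after IgE DEX (95% exact interval 201 to 44400), and 1025 against 1 gave 1340 after IgE DNP DEX (239 to 52800). These intervals and floors cover counting error only.

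**Figure D1:**
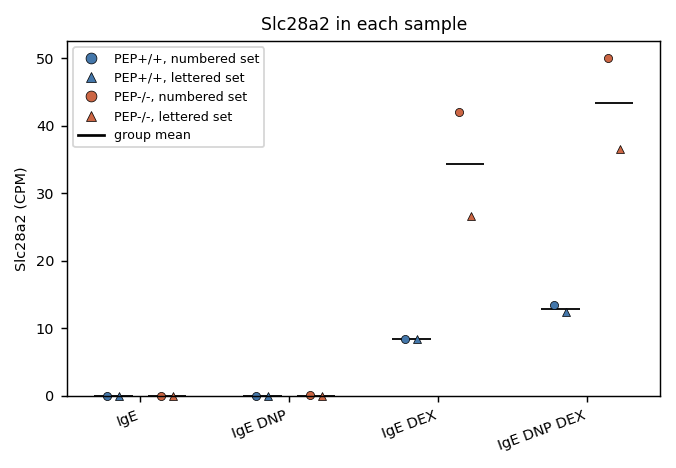
Slc28a2 in CPM (y axis) in each of the 16 samples by treatment (x axis); blue marks PEP+/+, orange PEP-/-, circles the numbered set, triangles the lettered set, and black bars the mean of 2 samples. Samples without DEX sit at or near 0, PEP+/+ samples with DEX between 8.40 and 13.4 CPM, and PEP-/- samples with DEX between 26.7 and 50.1 CPM.

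Among the DEX-treated groups the order of Slc28a2 was PEP-/- IgE DNP DEX (43.3 ± 9.49 CPM, SD, n = 2), PEP-/- IgE DEX (34.4 ± 10.9), PEP+/+ IgE DNP DEX (12.9 ± 0.692) and PEP+/+ IgE DEX (8.45 ± 0.0643). The 2 PEP-/- groups differed by less than their spread. The step between the genotypes was 4.07-fold after IgE DEX and 3.36-fold after IgE DNP DEX. Within the numbered set it was 5.01-fold and 3.74-fold, and within the lettered set 3.14-fold and 2.95-fold, so PEP-/- was higher in 4 of 4 same-set pairs.

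In the fit across all genes the genotype difference of Slc28a2 was 2.03 on the log2 scale after IgE DEX (SE 0.37, unadjusted p = 3.47e-04, edgeR) and 1.75 after IgE DNP DEX (SE 0.37, unadjusted p = 9.52e-04, edgeR). Neither passed after adjustment over the 13305 genes tested, with edgeR adjusted p = 0.577 and 1. Only 0.00752% of genes, a single gene (Ptpn22), passed in either of these comparisons. After IgE and after IgE DNP none of the 8 genes tested passed between the genotypes, and 0.00752% of all genes did (1.69% and 1.86% with the set as a block, where again none of the 8 passed). Slc28a2 was at the floor in those groups and could not pass there. With the set as a block the Slc28a2 estimates were 1.99 (edgeR adjusted p = 0.00335) and 1.72 (edgeR adjusted p = 0.0154), where 0.564% and 0.0225% of all genes passed. DESeq2, without the block, gave 2.04 (adjusted p = 2.81e-05) and 1.75 (adjusted p = 0.00918). Averaged over both DEX treatments, a comparison added after seeing the data, the difference was 1.89 (SE 0.26, edgeR adjusted p = 0.124) without the block and 1.86 (edgeR adjusted p = 2.40e-04) with it, where 0.00752% and 3.08% of all genes passed. Treatments within a set are not independent replicates of a genotype, and the block removes only a set difference common to both genotypes.

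DNP made a smaller difference to Slc28a2. In the presence of DEX, Slc28a2 was higher with DNP in 4 of 4 same-set pairs, by 0.47 on the log2 scale (SE 0.25), which did not pass (edgeR adjusted p = 0.287). With the set as a block the same estimate passed (edgeR adjusted p = 0.0261), as did 37.6% of all genes. Without DEX both groups were at the floor and no comparison can be made.

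Slc28a2 has a neighbouring paralogue, Slc28a2b (listed as Gm14085), and the reads of the pair cannot be fully told apart. Of the 4228 distinct 50-base stretches in the annotated transcripts of Slc28a2, 1498 (35.4%) also occur in Gm14085. Gm14085 had 0 reads in all 8 samples without DEX and 0 to 11 reads in the 8 samples with DEX, 46 in all. These made up 1.66% of the reads on either gene with DEX (exact 95% interval 1.21% to 2.2%), with 1.86% in PEP+/+ and 1.59% in PEP-/- samples. Reads with several alignments were not counted, so reads from the shared stretches may be missing from both genes. Whether any counted read of Gm14085 came from Slc28a2 was not tested.

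The promoters of the pair are shown because both genes had reads with DEX and almost none without it, and the glucocorticoid receptor binds palindromes built from AGAACA and its reverse complement TGTTCT with 3 bases between them. Each window holds 250 bases before and 50 bases after the start site (RefSeq, GRCm38.p6). Slc28a2 is at chr2:122426185-122426484 and Slc28a2b at chr2:122484691-122484990, both on the plus strand, and capitals mark AGAACA on either strand.
Slc28a2: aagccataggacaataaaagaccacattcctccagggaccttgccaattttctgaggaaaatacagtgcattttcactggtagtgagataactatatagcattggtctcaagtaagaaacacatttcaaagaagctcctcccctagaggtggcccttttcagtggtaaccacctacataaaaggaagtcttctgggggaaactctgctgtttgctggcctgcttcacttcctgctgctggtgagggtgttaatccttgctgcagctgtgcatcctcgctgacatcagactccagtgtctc
Slc28a2b: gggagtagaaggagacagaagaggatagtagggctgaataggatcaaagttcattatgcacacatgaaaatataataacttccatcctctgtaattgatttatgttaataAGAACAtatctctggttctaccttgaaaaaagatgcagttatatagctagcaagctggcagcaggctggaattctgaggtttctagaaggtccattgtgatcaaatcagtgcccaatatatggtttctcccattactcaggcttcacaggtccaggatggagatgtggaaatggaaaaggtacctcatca

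Neither window held this glucocorticoid receptor palindrome, which occurred in 0.00913% of the 32851 windows of all genes. The single arm AGAACA occurs within the palindrome and was found in 19% of all windows. It was present in the Slc28a2b window, starting 140 bases before the start site, and not in that of Slc28a2. The 2 windows were identical at 144 of 322 aligned positions (44.7%). All 9 genes of the set had at least 1 window, 18 in all, and AGAACA occurred in 2 of these, a window of Slc29a1 and that of Slc29a2. These letter matches describe the windows only, and sites outside them were not searched.

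The other concentrative transporters had few reads. Slc28a1, which prefers pyrimidine nucleosides, had 1 read over the 8 samples without DEX and 2 to 11 reads in each of the 8 samples with DEX, 30 reads in all. In a fit without the low-count filter it rose with DEX by 5.24 in sensitized (SE 1.54, edgeR adjusted p = 0.0128) and 3.41 in activated cells (SE 1.57, 0.233). In that fit Gm14085 rose by 5.30 (SE 1.44, edgeR adjusted p = 0.00529) and 5.37 (SE 1.52, 0.00805). Both genes were near the floor. Slc28a3, which takes both purine and pyrimidine nucleosides, had 0 to 6 reads per sample, 15 over the samples with DEX and 19 over those without. A change of Slc28a3 was not detectable at this depth.

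**Figure D2:**
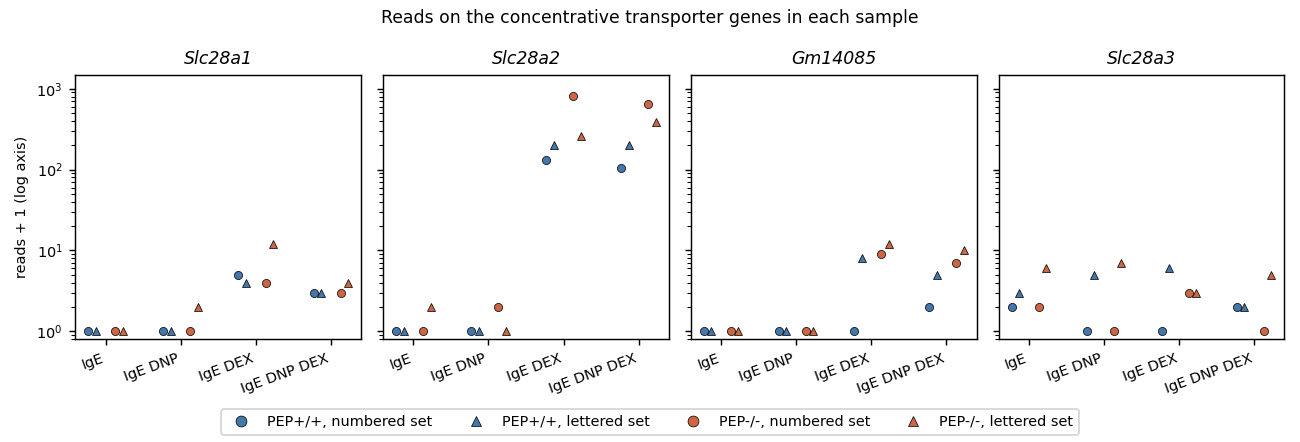
Reads plus 1 (log axis) on Slc28a1, Slc28a2, its neighbour Gm14085 and Slc28a3 in each of the 16 samples by treatment, with colours for genotype and shapes for the numbered and lettered sets. Slc28a2 had 103 to 812 reads in the samples with DEX, Gm14085 0 to 11, Slc28a1 2 to 11 and Slc28a3 0 to 5.

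By Pearson correlation of log2 CPM over the 16 samples, the genes most like Slc28a2 were Ahsg (r = 0.991), Ptgds (0.99), Olfr224 (0.988), Samhd1 (0.986) and Pld4 (0.985). By Spearman correlation the leading genes were Elovl4, Mroh2b, Ahsg, Gm27252 and Trim2, so Ahsg alone was in both groups of 5. The correlations share the same 16 libraries and follow the contrast of 8 samples with DEX against 8 without. Among the genes of the set, the values were -0.612 for Adk, -0.544 for Ada, 0.536 for Nt5e and 0.531 for Entpd1.

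The question for the remaining genes was whether relatives of Slc28a2 and the adenosine enzymes also differed with DEX. Of the 7 tested, only Ada passed, in each of the 2 DEX comparisons, and it was lower. Slc28a1 and Gm14085, which had reads almost only with DEX, were not among the 7. Over all genes, 9.37% passed with DEX in sensitized cells and 10.7% in activated cells, in either direction. The 7 genes had median log2 differences of -0.23 and -0.38, against 0 and -0.01 over all genes tested. With the set as a block 5 of the 7 passed in sensitized cells (26.7% of all genes) and 3 in activated cells (33.3%). The comparison in sensitized cells and that in activated cells share no samples, but each shares samples with the DNP comparisons.

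Ada, the deaminase, passed with both DEX and DNP without the block; with it, Entpd1 and Slc29a2 also passed with each agent in at least 1 comparison. In PEP+/+ cells the numbered and lettered samples had 32.3 and 33.7 CPM after IgE, 46.3 and 58.1 after IgE DNP, 22.2 and 19.3 after IgE DEX, and 41.4 and 36.9 after IgE DNP DEX (all in CPM). In PEP-/- cells the values were 26.5 and 29.1 CPM after IgE, 44.3 and 54.6 after IgE DNP, 20 and 21.9 after IgE DEX, and 26.9 and 36 CPM after IgE DNP DEX. In each of the 4 treatment comparisons the 4 samples on one side did not overlap the 4 on the other.

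With DEX, Ada fell by 0.54 on the log2 scale in sensitized cells (SE 0.14, edgeR adjusted p = 0.0361) and by 0.54 in activated cells (SE 0.14, edgeR adjusted p = 0.0346), and was lower in 8 of 8 same-set pairs. Both calls were near the threshold, and without the filter on low counts both were lost (edgeR adjusted p = 0.164 and 0.156). In sensitized cells leaving out any of the 8 libraries ended the call, with edgeR adjusted p between 0.0693 and 0.138. In activated cells leaving out any library other than the lettered PEP-/- IgE DNP DEX sample ended it, with edgeR adjusted p of at least 0.05 and at most 0.15, against 0.0351 without that sample.

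With DNP, Ada rose by 0.75 on the log2 scale without DEX (SE 0.14, edgeR adjusted p = 0.0041) and by 0.75 with DEX (SE 0.14, edgeR adjusted p = 0.00582), again in 8 of 8 same-set pairs. These calls held without any of the libraries in turn, with edgeR adjusted p from 0.00509 to 0.035. The background was high, since 16.7% of all genes passed with DNP without DEX and 12.6% with DNP in the presence of DEX. Ada was the only one of the 8 genes tested to pass without DEX, where Slc28a2 was at the floor and could not pass. In the presence of DEX, Ada and Slc29a1 passed. The difference between the DNP responses of Ada with and without DEX was 0.01 (SE 0.2, edgeR adjusted p = 1). After IgE DNP DEX the 4 samples ranged from 26.9 to 41.4 CPM, overlapping the range after IgE alone (26.5 to 33.7 CPM).

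**Figure D3:**
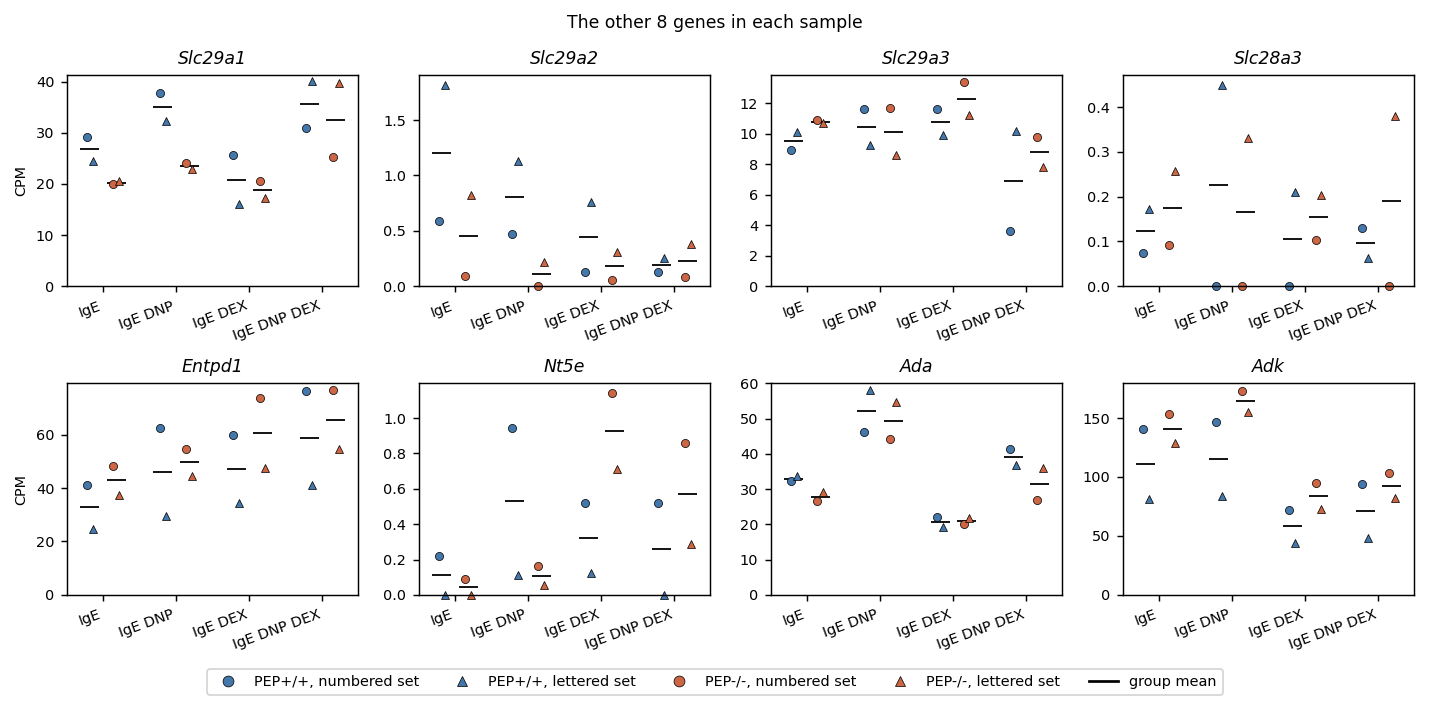
CPM values (y axes, each starting at 0) of the other 8 genes in each of the 16 samples by treatment; colours mark genotype, circles the numbered set, triangles the lettered set, and black bars the mean of 2 samples. Ada ranged from 19.3 to 22.2 CPM after IgE DEX and from 44.3 to 58.1 CPM after IgE DNP, while Adk and Entpd1 had higher values in the numbered than in the lettered sample of every group.

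Adk, the kinase that competes with Ada for adenosine, was also lower with DEX, but the spread between sets was larger. In PEP+/+ cells its numbered and lettered samples had 141 and 81.3 CPM after IgE, 147 and 83.8 after IgE DNP, 72.4 and 44.1 after IgE DEX, and 93.7 and 48 after IgE DNP DEX (all in CPM). In PEP-/- cells they had 153 and 129 CPM after IgE, 173 and 155 after IgE DNP, 94.8 and 72.9 after IgE DEX, and 103 and 82.4 CPM after IgE DNP DEX. Adk was lower with DEX in 8 of 8 same-set pairs, though the lowest lettered samples without DEX overlapped the samples with DEX.

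The log2 difference of Adk with DEX was -0.84 in sensitized cells (SE 0.27, edgeR adjusted p = 0.0911) and -0.76 in activated cells (SE 0.27, edgeR adjusted p = 0.109). With the set as a block it was -0.84 (SE 0.13, edgeR adjusted p = 2.12e-04) and -0.78 (SE 0.13, edgeR adjusted p = 4.18e-04), and Adk fell in both. DNP gave 0.14 without DEX and 0.21 with DEX, neither of which passed in either fit. Adk was higher in PEP-/- than in PEP+/+ cells in 8 of 8 same-set pairs, by 0.44 (SE 0.19, edgeR adjusted p = 0.326). With the block it was 0.49 (SE 0.09, edgeR adjusted p = 0.00265). The gap between genotypes was wider in the lettered set after each treatment, and the block removes only a set difference common to both genotypes. Pairs from the same set are not independent replicates of a genotype.

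Entpd1 (CD39), which starts the extracellular breakdown of ATP, was higher with DEX in 8 of 8 same-set pairs and higher with DNP in 8 of 8. In PEP+/+ cells the numbered and lettered samples had 41.1 and 24.5 CPM after IgE, 62.4 and 29.7 after IgE DNP, 59.7 and 34.3 after IgE DEX, and 76.3 and 41.2 after IgE DNP DEX (all in CPM). In PEP-/- cells they had 48.4 and 37.5 CPM after IgE, 54.7 and 44.5 after IgE DNP, 73.8 and 47.4 after IgE DEX, and 76.6 and 54.5 CPM after IgE DNP DEX. Groups overlapped across the sets, and no difference of Entpd1 passed without the block.

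With the block Entpd1 rose with DEX by 0.49 in sensitized cells (SE 0.12, edgeR adjusted p = 0.00705, against 0.451 without the block) and by 0.37 in activated cells (SE 0.12, edgeR adjusted p = 0.0285, against 0.544). It also rose with DNP without DEX, by 0.34 (SE 0.12, edgeR adjusted p = 0.0396, against 0.563), a comparison in which 37.9% of all genes passed with the block. With DNP in the presence of DEX it was 0.22 and did not pass in either fit. The basophil, macrophage and neutrophil markers, higher in the numbered set, moved with the same set difference as Entpd1 and Adk, and their part in it was not tested.

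Nt5e (CD73), the enzyme that releases adenosine from AMP, had few reads. After IgE the 4 samples had 3 and 0 reads in PEP+/+ cells and 1 and 0 in PEP-/- cells, whereas after IgE DEX they had 8 and 3 reads in PEP+/+ cells and 22 and 7 in PEP-/- cells. After IgE DNP there were 10 and 1 reads in PEP+/+ cells and 2 and 1 in PEP-/- cells, and after IgE DNP DEX 4 and 0 in PEP+/+ and 11 and 3 in PEP-/- cells. In sensitized cells Nt5e was higher with DEX in 4 of 4 same-set pairs, with a log2 difference of 2.89 (SE 1.16, edgeR adjusted p = 0.183). With the block it was 2.85 (SE 0.71, edgeR adjusted p = 0.00753). In activated cells it was 0.51 (SE 1.08, edgeR adjusted p = 0.851), with 2 of 4 pairs higher.

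Of the equilibrative transporters, Slc29a1 (ENT1), the main transporter of this kind at the plasma membrane, was the abundant one. In PEP+/+ cells the numbered and lettered samples had 29.2 and 24.5 CPM after IgE, 37.7 and 32.3 after IgE DNP, 25.6 and 16.1 after IgE DEX, and 30.9 and 40.2 after IgE DNP DEX (all in CPM). In PEP-/- cells they had 19.9 and 20.6 CPM after IgE, 24.0 and 23.0 after IgE DNP, 20.5 and 17.3 after IgE DEX, and 25.2 and 39.7 CPM after IgE DNP DEX. Slc29a1 was higher with DNP in 8 of 8 same-set pairs.

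With DNP in the presence of DEX, Slc29a1 rose by 0.77 on the log2 scale (SE 0.19, edgeR adjusted p = 0.0234). Without DEX it was 0.30 (SE 0.19, edgeR adjusted p = 0.377), and the test of the difference between these responses gave 0.48 (SE 0.27, edgeR adjusted p = 1). The call was lost without any of 5 libraries, the numbered PEP-/- IgE DEX sample (edgeR adjusted p = 0.0521) and the lettered samples of PEP+/+ IgE DEX (0.0989), PEP+/+ IgE DNP DEX (0.0621), PEP-/- IgE DEX (0.0908) and PEP-/- IgE DNP DEX (0.094). DEX gave -0.23 in sensitized and 0.24 in activated cells, and neither passed in either fit. An antisense gene, Gm17080, shares 275 exon bases with Slc29a1. The library kit was stranded, but the strand setting of the counting is not given in the sources used here. The effect of that stretch on the count of Slc29a1 was not tested.

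Slc29a2 (ENT2) had 0 to 21 reads per sample and more in the lettered than in the numbered sample of every group. Its log2 difference with DEX in sensitized cells was -1.49 (SE 0.88, edgeR adjusted p = 0.424), and with the block -1.43 (SE 0.42, edgeR adjusted p = 0.0203). With DNP without DEX it was -1.25 (SE 0.88, edgeR adjusted p = 0.429), and with the block -1.24 (SE 0.43, edgeR adjusted p = 0.0338). It was lower in PEP-/- cells in 7 of 8 same-set pairs, with a log2 difference of -1.32 (SE 0.67, edgeR adjusted p = 0.426), and with the block -1.29 (SE 0.35, edgeR adjusted p = 0.0212).

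Slc29a3 (ENT3) ranged from 3.65 to 13.4 CPM, and no difference of it passed in either fit. Its lowest value, 3.65 CPM from 28 reads, was in the numbered PEP+/+ IgE DNP DEX sample, the library with the fewest reads, while the lettered sample of that group had 10.2 CPM. Leaving out the lettered sample made 2 differences pass, -0.85 with DEX in activated cells (edgeR adjusted p = 0.0285) and -1.0 with DNP in the presence of DEX (edgeR adjusted p = 0.0119), and without the low sample they were -0.10 (0.857) and -0.25 (0.519).

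**Figure D4:**
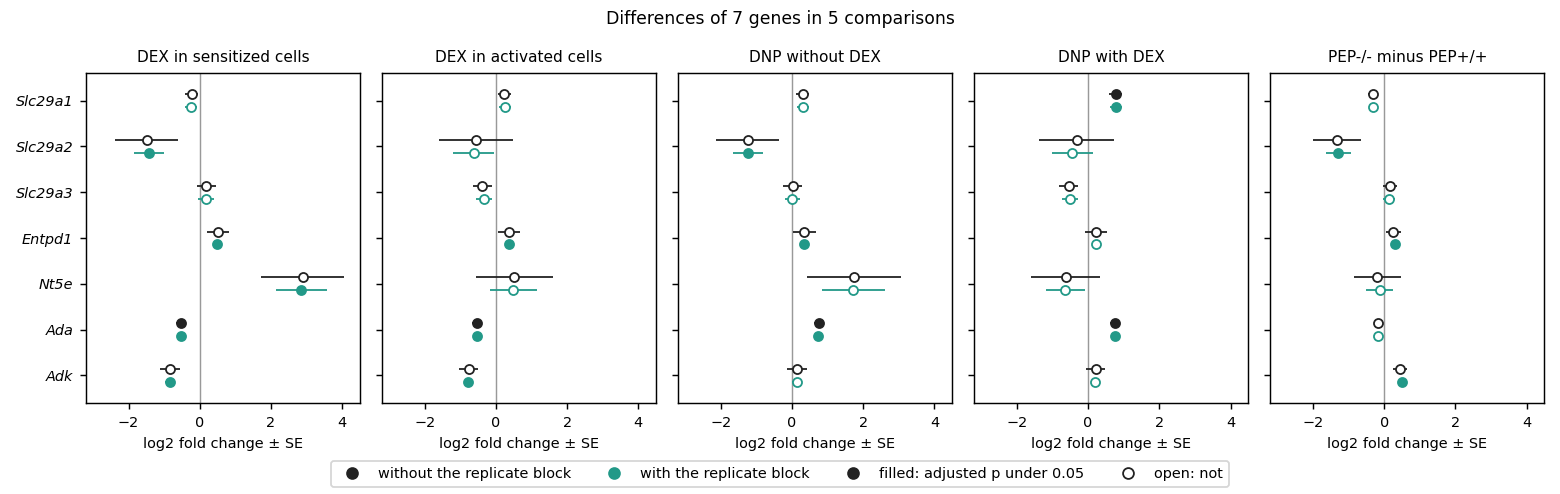
Log2 fold changes with standard errors (x axes) of 7 genes in the 4 treatment comparisons and for PEP-/- minus PEP+/+, from edgeR without the replicate block (black) and with it (green); filled points have an adjusted p under 0.05. Ada is filled in all 4 treatment comparisons in both fits, Slc29a1 in that of DNP with DEX, and the points of Adk and Entpd1 keep their place while their bars shorten with the block.

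Averaged over the 4 treatments, none of the 8 genes tested passed between PEP-/- and PEP+/+ without the block (edgeR). Of all genes, 1.59% passed. An unadjusted p under 0.05 was found for 3 of the 8 genes and for 1884 of all 13305 genes tested (edgeR). With the block Slc29a2, Entpd1 and Adk passed, and so did 17.4% of all genes. The 4 treatments within a set are not independent replicates of a genotype, which the block p-values do not take into account. For Entpd1 the difference was 0.30 (SE 0.08, edgeR adjusted p = 0.025) with the block and 0.26 (SE 0.22, edgeR adjusted p = 0.707) without it, with PEP-/- higher in 7 of 8 same-set pairs. Slc29a1 was lower in PEP-/- cells in 7 of 8 pairs, with a log2 difference of -0.31 (SE 0.14, edgeR adjusted p = 0.321), which did not pass with the block either (0.0865). Whether the response to DEX or DNP differed between genotypes was tested directly in 7 genes for DEX and 8 for DNP, and none passed. Slc28a2 was left out of the DEX tests because it was chosen for its rise with DEX. It had at most 1 read per sample without DEX, so whether its DEX response differed between genotypes was not tested. In the DNP test, without DEX, Slc28a2 was at the floor and could not pass. Over all genes edgeR called 0. Of the 13305 genes, 40, 95 and 30 had an unadjusted edgeR p under 0.05 (DEX in sensitized cells, DEX in activated cells, DNP). With the block edgeR again called 0, and 309, 485 and 143 genes had an unadjusted p under 0.05. Each count is a share below 0.05 of the genes tested, so the lack of calls says little. For the DNP response with against without DEX, none of the 7 genes tested passed, and 0.331% of all genes did (1.57% with the block, none of the 7).

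The wider pathway was followed through 6 lists of 61 genes, of which 42 were tested. With DEX, 4 rose and 3 fell in sensitized cells and 3 rose and 5 fell in activated cells, beside 9.37% and 10.7% called over all genes. Their median log2 difference was 0 and -0.08. With the block 6 rose and 9 fell in sensitized cells, and 10 rose and 12 fell in activated cells, beside 26.7% and 33.3% over all genes.

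Among the 42 pathway genes tested, Ak3, a mitochondrial adenylate kinase, had the largest change with DEX. It rose by 2.19 in sensitized (edgeR adjusted p = 1.25e-04) and 2.11 in activated cells (1.81e-04). Nt5c2, a cytosolic nucleotidase, rose by 0.82 and 0.79 (edgeR adjusted p = 0.00159 and 0.00216), and Nt5c3b, another cytosolic nucleotidase, changed by -0.60 and -0.61 (0.0451 and 0.0415). Entpd3, a relative of Entpd1 at the cell surface, changed by -1.26 and -1.16 (edgeR adjusted p = 0.00647 and 0.0116), while Entpd1 itself lay on the side of an increase. Of the purine salvage and breakdown list, 15 of 20 genes were tested, and 2 rose and 0 fell with DEX in sensitized cells, where 9.37% of all genes passed, and 2 rose and 1 fell in activated cells, where 10.7% did. With the block 4 rose and 2 fell in sensitized cells (26.7% of all genes), and 5 rose and 2 fell in activated cells (33.3%).

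Of the 4 adenosine receptors, 3 were tested. With DEX 1 fell in sensitized and 1 in activated cells, where 9.37% and 10.7% of all genes passed, and with DNP 2 rose without DEX and 2 with it, where 16.7% and 12.6% did. Adora3, the receptor known for enhancing mast cell degranulation in mice, changed with DEX by -0.76 in sensitized (SE 0.19, edgeR adjusted p = 0.0298) and -1.34 in activated cells (SE 0.2, edgeR adjusted p = 0.00133). Adora2a, coupled to stimulation of adenylate cyclase, rose with DNP by 2.51 without DEX (SE 0.13, edgeR adjusted p = 3.66e-07), and Adora2b, a low-affinity receptor of the same coupling, by 2.65 (SE 0.44, edgeR adjusted p = 0.00157). In the presence of DEX the DNP responses were 2.28 (SE 0.13) for Adora2a and 2.94 (SE 0.45) for Adora2b, and both passed. With the set as a block 2 receptors fell with DEX in sensitized and 3 in activated cells (26.7% and 33.3% of all genes). In that fit 3 rose with DNP without DEX and 2 with it (37.9% and 37.6%). Adora2b then changed with DEX by -0.92 and -0.62 (edgeR adjusted p = 0.00221 and 0.00705), and Adora2a by -0.34 in activated cells (0.0101). Adora3 rose with DNP without DEX by 0.52 with the block (edgeR adjusted p = 0.0014).

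With DNP without DEX, 7 of the 42 genes rose and 4 fell, against 16.7% called over all genes. Panx1, a channel that releases ATP, rose by 1.32 (edgeR adjusted p = 0.00148). In the salvage list Ahcyl1, a relative of the enzyme that splits adenosylhomocysteine, rose by 0.70 (edgeR adjusted p = 0.00304) and Aprt, which salvages adenine, by 0.51 (0.0155), whereas Ampd3, an AMP deaminase, changed by -1.47 (0.00441). The uridine-cytidine kinases went in opposite directions, with Uck2 at 1.42 (edgeR adjusted p = 0.00598) and Uck1 at -1.20 (0.00424). Nt5m, a mitochondrial nucleotidase, changed by -0.71 (edgeR adjusted p = 0.0428). With DNP in the presence of DEX 8 genes rose and 2 fell, against 12.6% called over all genes. Between genotypes 0 rose and 1 fell, against 1.59%. With the block 12 of the 42 genes rose and 10 fell with DNP without DEX (37.9% of all genes). In the presence of DEX 11 rose and 11 fell with DNP (37.6%), and between genotypes 5 rose and 12 fell (17.4%).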

How the data were processed

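RNA from 16 BMMC samples was sequenced as paired-end 50 base reads. According to the methods and the labels, the authors aligned reads to GRCm38 with TopHat2 and counted them per Ensembl gene with HTSeq, and the deposited values are raw counts for 39179 genes per sample. The strand setting of the counting is not given in the sources used here. Reads with several alignments (21.45% to 37.76% of a file's total) were not counted, which can lower the count of Slc28a2 because of its neighbour. Symbols came from GENCODE M21 (GRCm38), which held 95.99% of the gene IDs, and promoter windows from RefSeq.

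Tests used edgeR 4.0.16 in R 4.3.3 (quasi-likelihood, TMM, filterByExpr with a minimum count of 10, 8 group means over all 16 samples, Benjamini-Hochberg adjustment over 13305 genes, threshold 0.05). DESeq2 1.42.0 was an alternative. The edgeR tests without the block were run on simulated data with independent samples, in which no low-count gene was changed. That check does not cover the fit with the block or the genes with few reads. Fold changes of Slc28a2 against 0 reads used a floor of 3 reads per library.

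The titles number 1 sample of each condition and letter another. Deviations of same-set samples from their group means correlated in all 28 pairs of conditions (r from 0.453 to 0.799, median 0.718). The sets were therefore taken as pairs. A fit with the set as a block was given for the 9 genes where it changed a call in the comparisons above. For the pathway genes it was given mainly as counts. The 9 genes, the 6 lists of pathway genes and the marker lists were chosen with earlier results of these data known. The 9 genes are all named, pathway genes are named where DEX called them in the same direction in both cell states or DNP called them without DEX (at most 4 per list by adjusted p; 1 gene that the rule would name is not reported here), and Slc28a2 likeness is given for the 5 leading genes. The genotype difference averaged over samples with or without DEX was added after seeing the data. No paired cultures or mice are named in the labels.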

Additional observations from a re-analysis of the deposited data

Results flagged for a closer look

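Slc29a2 and Nt5e moved in opposite directions in the 2 genotypes with DEX in activated cells. Slc29a2 was lower with DEX in both same-set pairs of PEP+/+ and higher in both of PEP-/-, a difference between genotypes of 2.7 on the log2 scale (SE 2.04, edgeR adjusted p = 1; with the replicate block 3.12, unadjusted p = 0.0149, edgeR adjusted p = 0.999). Nt5e was lower in both PEP+/+ pairs and higher in both PEP-/- pairs, a difference of 3.8 (SE 2.13, edgeR adjusted p = 1; with the block 3.55, unadjusted p = 0.0148, edgeR adjusted p = 0.999). Both genes had at most 11 reads per sample in these groups, and neither difference passed the test.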

How the results depend on the processing

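DESeq2's size factors in place of TMM changed no call and no direction among 65 results. Over all genes, DEX in sensitized cells called 1247 of 13305, 1535 of 23136 without the low-count filter and 1626 of 14492 with DESeq2. The block gave 3548 of 13305, and only the groups compared 976 of 12914. In that order of settings, DEX in activated cells called 1418, 1788, 1884 of 14492, 4429 and 805 of 12709. DNP called 2216, 2314, 2631 of 14925, 5042 and 1655 of 12709 without DEX. With DEX it called 1678, 1880, 2229 of 14060, 5007 and 953 of 12891. The number of called genes of the set was 1 for DEX in sensitized cells and became 2 without the low-count filter (Nt5e and Adk in place of Ada), 2 with DESeq2, 5 with the replicate block, and 0 with only the groups compared or in either genotype alone. It was 1 for DEX in activated cells, stayed 1 without the filter (Adk in place of Ada), and became 3 with the block and 0 with only the groups compared or in either genotype alone. It was 1 for DNP without DEX and became 3 with the block and 0 in PEP+/+ alone. It was 2 for DNP with DEX and became 1 with only the groups compared or in PEP+/+ alone and 0 in PEP-/- alone. It was 0 for the genotype mean and became 3 with the block. For the genotypes compared after IgE DEX, and likewise after IgE DNP DEX, it was 0 and became 1 (Slc28a2) with no filter, with the block and with DESeq2. Leaving out 1 library gave 0 to 0 for DEX in sensitized cells, 0 to 1 for DEX in activated cells and 1 to 2 for DNP with DEX.

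Directions reversed in single genotypes for low genes, with Slc29a2 at 0.78 in PEP-/- alone and Nt5e at -1.38 in PEP+/+ alone for DEX in activated cells, Slc29a3 at -0.10 for DNP without DEX and Slc29a2 at 0.51 for DNP with DEX in PEP-/- alone. Without 1 library, signs changed within these ranges: Adk -0.10 to 0.37 and Slc29a3 -0.12 to 0.11 for DNP without DEX; Adk -0.04 to 0.43, Entpd1 -0.01 to 0.44, Slc29a2 -1.01 to 0.55 and Nt5e -2.91 to 0.05 for DNP with DEX; Slc29a2 -1.25 to 1.38 and Nt5e -1.77 to 1.63 for DEX in activated cells; Nt5e -0.77 to 0.95 for the genotype mean. The cause was not tested.

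Over all genes, the block raised the calls to 3548 and 4429 (DEX, sensitized and activated), 5042 and 5007 (DNP without and with DEX), 2310 (genotype mean, from 212) and 209 (DNP by DEX, from 44). After each treatment the genotype calls, 1 each, became 225, 248, 75 and 3 with the block (IgE, IgE DNP, IgE DEX, IgE DNP DEX), 21, 39, 40 and 22 without the filter, and 24, 37, 16 and 2 with DESeq2; fitting the compared groups alone gave 0 after IgE, IgE DNP and IgE DEX. The genotype mean gave 472 without the filter and 668 with DESeq2, and 57 to 203 without 1 library; DNP by DEX gave 107 and 96. Without the filter the genotype interactions gave 2, 24 and 3. Fitting only the compared groups gave 805 for DEX in activated cells and 953 for DNP with DEX, and single genotypes (PEP+/+, PEP-/-) gave 423 and 445, 403 and 436, 785 and 960, and 511 and 530 for the 4 treatment comparisons. With 2 samples a group and 0 to 22 reads, Slc28a3, Slc29a2 and Nt5e were limited by depth.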
